A study of Bos taurus with 8 samples.

Results

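The genes described here are those of the transporter families that exchange sodium, chloride, bicarbonate and protons across cell membranes in the calf jejunum. They are the genes named SLC4A, SLC9A, SLC9B, SLC9C, SLC12A or SLC26A with a number, and CFTR, 43 of the 17932 genes in the deposited table. RNA-seq was made from jejunal tissue of Holstein bull calves on day 90 of a feeding trial, with 1 library per calf. In the DCLI group (n = 4), calves received 1 g/d of a heat-killed Limosilactobacillus ingluviei postbiotic (LIC37) in their milk replacer. In the control group (CON, n = 4), calves received none. Both groups came from 1 farm and were given the same milk replacer and starter, had their milk replacer cut on day 82 and were weaned by day 89. The material is described as jejunal epithelium, but 6 smooth muscle genes were also abundant (summed TPM 1088 to 4013 in DCLI and 1728 to 10345 in CON), and in bulk tissue fewer cells of a type and less RNA per cell cannot be told apart.

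The jejunum takes up sodium and chloride together when a sodium-proton exchanger of the SLC9 family and a chloride-bicarbonate exchanger of the SLC26 family work side by side in the brush border. Bicarbonate enters the cell across the opposite, basolateral membrane through sodium-bicarbonate cotransporters of the SLC4 family. Fluid secretion runs the other way: SLC12A2 loads chloride from the blood side, and the channel CFTR lets it out into the lumen.

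The name pattern took 40 transporters and 3 proteins that are not transporters: SLC9A3R1 and SLC9A3R2 (also called NHERF1 and NHERF2, scaffolds that hold SLC9A3 at the brush border) and SLC4A1AP (kanadaptin). The values are TPM, a library's share of transcripts corrected for transcript length, so that levels of different genes can be set beside each other. TPM was summed over the entries of each gene. Of the 43 genes, 28 passed the filter of at least 1 TPM in at least 4 libraries and were tested, and 15 did not. SLC4A10, SLC9A4, SLC9B1 and SLC26A9 were not analysed here.

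CON4 stood apart from the other calves: its summed TPM of 8 B cell genes was 3724 (10.9 to 33.2 in DCLI and 13.3 to 33.9 in CON1 to CON3), and its summed TPM of 14 enterocyte genes was 1229. That enterocyte sum was 24801 to 40611 in DCLI and 10249 to 31734 in CON1 to CON3. FABP2 alone was 11320 to 21045 TPM in DCLI and 3939 to 19800 TPM in CON1 to CON3. Without CON4, 12 of the 14 limma log2 fold changes were positive and 2 negative. Several were near 0 or lower in that fit: VIL1 -0.07, ANPEP -0.37, DPP4 0.04 and CDH17 0.11. At a limma unadjusted p under 0.05, 6 of the 14 genes were higher in DCLI, both with all calves and without CON4. Over all genes that threshold was passed by 4.09% as higher and 2.99% as lower, and without CON4 by 4.22% and 5.86%. Genes that vary along the small intestine also differed between the groups. The summed TPM of 4 distal genes was 155 to 26342 in DCLI and 1142 to 70264 in CON, with 2 of 4 lower in DCLI (4 of 4 without CON4), and that of 5 proximal genes was 217 to 12412 in DCLI and 23.4 to 151 in CON, with 4 of 5 higher (3 of 5 without CON4). FABP1, a proximal gene, was listed at 0 in CON4. Fibroblast genes had a summed TPM of 315 to 567 in DCLI and 449 to 963 in CON, with 3 of 6 lower in DCLI (4 of 6 without CON4). A label names liver, and the summed TPM of 4 liver genes was 11.8 to 52.6 in DCLI and 3.84 to 54.1 in CON: ALB was at most 1.07 TPM in any library, SERPINA1 at most 8.47 TPM, APOH reached 47.6 TPM in DCLI4 and TTR 53.8 TPM in CON4. The part of these differences in the results on exchangers was not tested.

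None of the 28 exchanger genes passed an adjusted p under 0.05 by limma, with Benjamini-Hochberg correction across 13228 genes, and neither did any other gene (0.0% called). At an unadjusted p under 0.05, 2 exchanger genes were higher in DCLI (SLC4A4 and SLC26A6) and 1 was lower (SLC12A4), while over all genes 541 (4.09%) were higher and 396 (2.99%) lower. The groups did not overlap for 1 gene that was higher in every DCLI calf (SLC4A4, against 2.28% of all genes) and for 2 that were lower in every DCLI calf (SLC12A4 and SLC4A2, against 3.11%). With 28 genes, these counts lie near the background shares, and the results below are about single members rather than the list. The log2 fold changes of DCLI over CON were positive in 14 genes and negative in 14, with a median of 0.01, beside a median of -0.06 over all genes tested. Without CON4, the same unadjusted threshold was passed by 2 exchanger genes higher in DCLI and 3 lower, beside 4.22% and 5.86% of all genes. SLC9A3 and SLC9A3R2 passed it, as lower, in that fit and not with all calves. In the same 7 calves 1 gene did not overlap as higher (3.41% of all genes) and 3 as lower (6.31%).

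**Figure D1:**
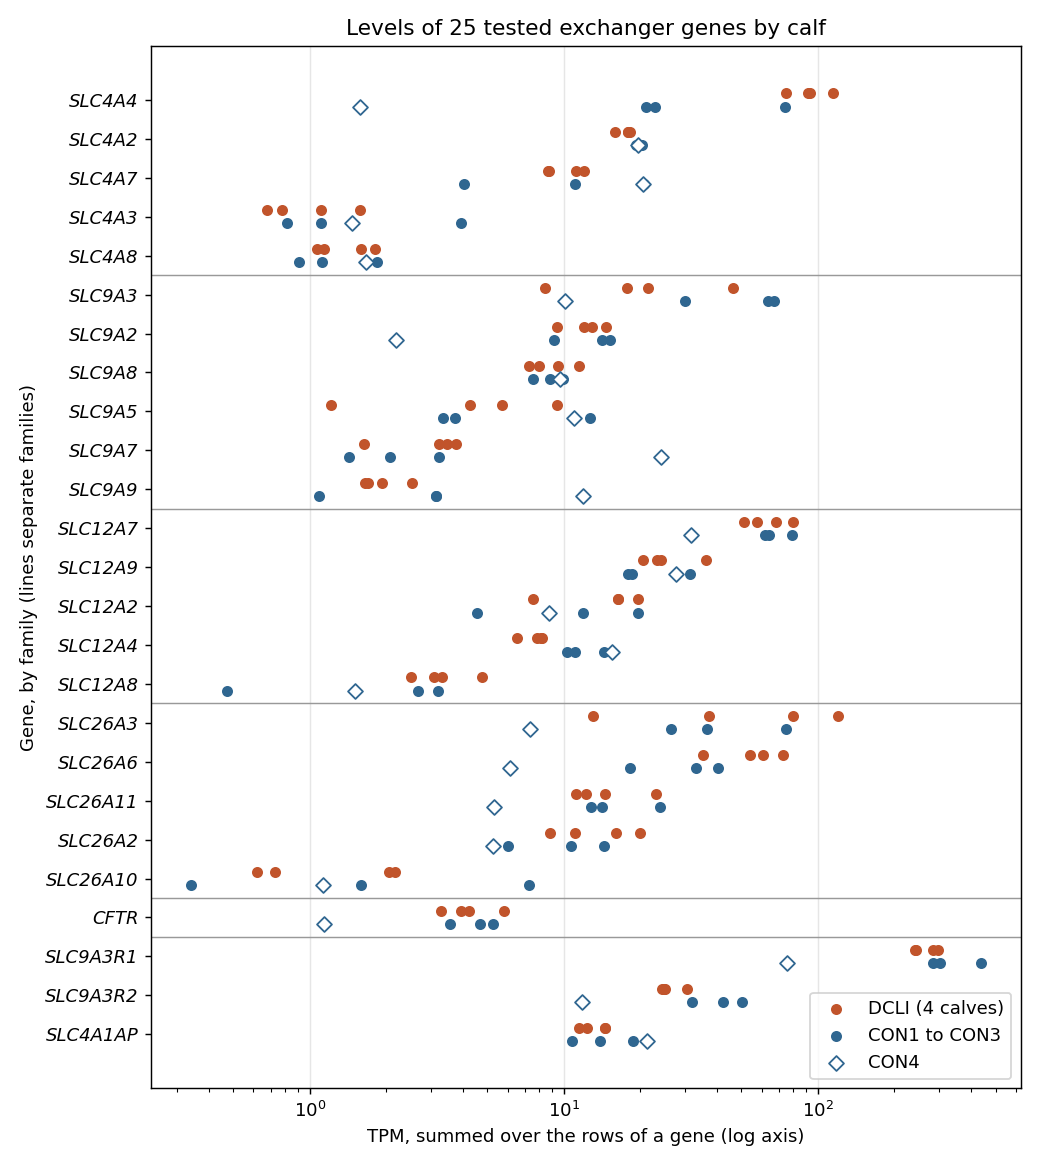
TPM of 25 of the 28 tested genes in each calf on a log axis, by family, with DCLI calves above CON calves in each row and CON4 as an open diamond. SLC9A3R1, SLC4A4 and SLC26A3 lie at the top of the range, CON4 has the lowest value of 10 of these genes and the highest of 4, and the groups are separate for SLC4A4, SLC12A4 and, narrowly, SLC4A2. Over all tested genes, CON4 has the lowest value of 28.8% and the highest of 39.8%.

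SLC4A4 (gene ID 282360) encodes the electrogenic sodium-bicarbonate cotransporter NBCe1, which brings bicarbonate into epithelial cells from the blood side. Its TPM was 91.1, 93.3, 75.0 and 115 in DCLI1 to DCLI4, against 21.1, 74.0, 22.9 and 1.57 in CON1 to CON4. Every DCLI calf was above every CON calf, but the gap between DCLI3 and CON2 was about 1 TPM, and CON4 was far below the rest. The means were 93.5 ± 16.4 TPM in DCLI and 29.9 ± 30.9 TPM in CON (SD, n = 4 each), a ratio of 3.13, with p = 0.0286 in a 2-sided exact permutation test, the smallest p that 4 against 4 allows. On the log2(TPM + 1) scale limma gave a fold change of 2.39 (SE 0.85, 95% interval 0.47 to 4.31), with an unadjusted p of 0.0202 and an adjusted p of 0.692. Without CON4 the limma fold change was 1.46 with an unadjusted p of 0.00637 and an adjusted p of 0.378, and over all alternatives the limma adjusted p ran from 0.251 to 0.941. With array weights, which count each library by how closely it follows the fit, the fold change was 0.82 with a limma unadjusted p of 0.0838. Its sign was positive under all 17 alternatives, and the adjusted threshold was passed under none.

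SLC4A4 was also set against VIL1 (villin, of the brush border) and EPCAM (an adhesion molecule of all gut epithelium), a comparison chosen after the values were seen. Per 100 TPM of VIL1, SLC4A4 stood at 9.13, 8.91 and 9.13 in DCLI1 to DCLI3 and slightly higher in DCLI4 (mean 9.30 ± 0.493, SD, n = 4), against 1.65, 6.18, 3.08 and 1.34 in CON1 to CON4. The 4 DCLI calves were almost level on this scale and remained above all CON calves (ratio of means 3.03, exact permutation p = 0.0286). Per 100 TPM of EPCAM it was 13.2, 11.3, 9.65 and 13.9 in DCLI and 3.61, 10.2, 4.0 and 0.89 in CON, where CON2 lay above DCLI3 and the groups overlapped (exact permutation p = 0.0571). Most of the SLC4A4 signal came from 1 of its 4 entries, which held 78.1% to 89.2% of the TPM of the gene in every library.

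DCLI3 and CON2, the calves closest to each other in SLC4A4, were also close in genes of intestinal position. GATA4, a transcription factor of the proximal small intestine, had 74.8, 72.2, 40.7 and 62.7 TPM in DCLI1 to DCLI4, against 14.6, 42.9, 1.22 and 0.150 TPM in CON1 to CON4. The ileal bile acid-binding protein FABP6 had 25603 TPM in DCLI3 and 26023 TPM in CON2. In the other 3 DCLI calves FABP6 was at most 37.5 TPM, and in CON1 and CON3 it was at least 50176 TPM. CON4, with the lowest SLC4A4 and GATA4, had 1066 TPM of FABP6, below DCLI3 and CON2. The 3 calves with the highest SLC4A4 (DCLI1, DCLI2 and DCLI4) had the highest GATA4 and the lowest FABP6 of the 8. GATA4 and FABP6 were picked after the values were seen. Of the other proximal and distal genes, FABP1, ONECUT2, SLC40A1 and SLC10A2 set the same calves apart, and CYBRD1, SLC51A and SLC51B did not. CYBRD1 was 6.76 TPM in DCLI2 and 9.52 TPM in CON2, and SLC51A and SLC51B were lowest in CON4 (12.7 and 42.7 TPM). The part of intestinal position in the SLC4A4 difference was not tested.

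The other SLC4 genes did not follow SLC4A4. SLC4A2 (gene ID 404084), the basolateral chloride-bicarbonate exchanger AE2, had 16.0, 17.9, 17.9 and 18.1 TPM in DCLI, against 19.3, 19.9, 20.3 and 19.5 TPM in CON. All DCLI calves were below all CON calves, yet by little: 17.5 ± 1.02 TPM in DCLI and 19.7 ± 0.445 TPM in CON (SD, n = 4 each; exact permutation p = 0.0286), a limma log2 fold change of -0.17 (SE 0.16, unadjusted p = 0.313), also -0.17 without CON4 (unadjusted p = 0.225). It was the most even exchanger gene across the calves, CON4 included, but its 3 entries were not. The second entry held 66.6% of the gene in CON4, and 1.34% to 27.0% in the rest. With only the most abundant entry of each gene the SLC4A2 fold change turned to 0.19, and per 100 TPM of VIL1 the groups overlapped (exact permutation p = 0.371). Against EPCAM they were separate, at 2.16 to 2.31 in DCLI and 2.74 to 3.54 in CON1 to CON3, with CON4 higher still (exact permutation p = 0.0286). EPCAM itself averaged 780 TPM in DCLI and 515 TPM in CON, with 176 TPM in CON4. Of the 28 tested genes, 4 were separate as lower and 0 as higher against EPCAM. Against VIL1, 0 were lower and 1 higher. The shares over all genes on these scales were not computed, so the counts have no background and are not read as a result. SLC4A7, the electroneutral cotransporter NBCn1, had 8.62, 12.04, 11.2 and 8.77 TPM in DCLI and 4.04, 11.1, 20.7 and 20.6 TPM in CON, with DCLI inside the CON range (limma log2 fold change -0.23, unadjusted p = 0.614, and 0.01 without CON4).

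SLC4A4 alone made up 73.5% to 79.2% of the summed SLC4 TPM in DCLI1, DCLI2 and DCLI4 and somewhat less in DCLI3, where it still exceeded the 3.44% to 67.9% of the CON calves. The SLC4 sums were 107 to 145 TPM in DCLI and 45.6 to 109 TPM in CON, and CON2 lay above DCLI3. SLC4A3 and SLC4A8 stayed between 0.680 and 3.94 TPM, and SLC4A5, SLC4A9 and SLC4A11 did not pass the filter. SLC4A1, the band 3 anion exchanger of red cells, was at 0.290 TPM in CON4 and listed at 0 in the other 7 libraries. In CON4 the red cell genes HBA and HBA1 were also highest, with 2367 and 20.7 TPM, while HBB was listed at 0 there.

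**Figure D2:**
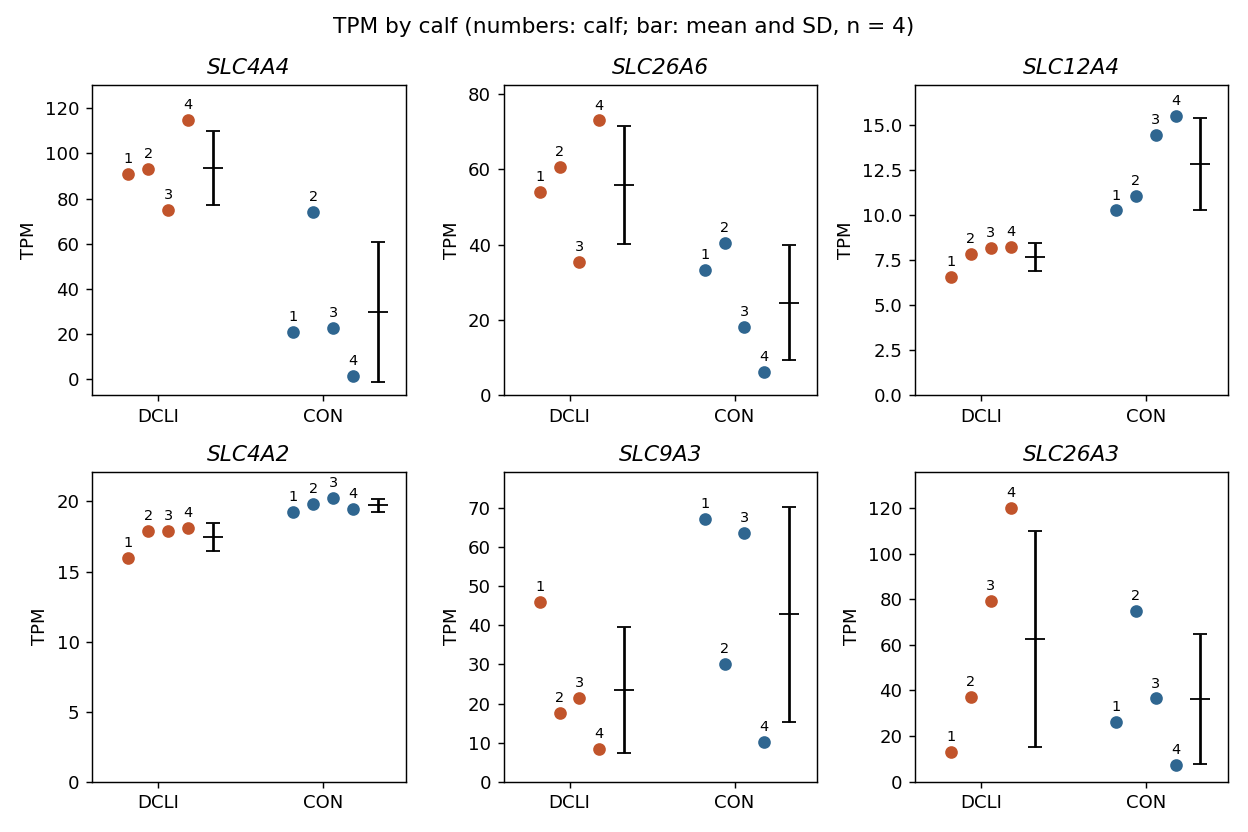
TPM of 6 exchanger genes by calf, with DCLI left of CON, calf numbers above the points and black bars for the mean and SD (n = 4). SLC4A4 is higher in all DCLI calves and SLC12A4 and SLC4A2 are lower, whereas SLC26A6, SLC9A3 and SLC26A3 overlap between the groups.

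In the SLC26 family, SLC26A6 (gene ID 514514), an apical anion exchanger also called PAT1 that trades chloride for bicarbonate or oxalate, differed most. It had 54.1, 60.8, 35.4 and 73.0 TPM in DCLI1 to DCLI4, against 33.2, 40.4, 18.2 and 6.16 TPM in CON1 to CON4. Only CON2 exceeded a DCLI calf, and that calf was DCLI3. The means were 55.8 ± 15.7 TPM in DCLI and 24.5 ± 15.3 TPM in CON (SD, n = 4 each; exact permutation p = 0.0571). The limma log2 fold change was 1.39 (SE 0.52, 95% interval 0.22 to 2.56), with an unadjusted p of 0.0251 and an adjusted p of 0.696, within 0.323 to 0.941 over the alternatives. Without CON4 it was 0.87 with an unadjusted p of 0.0237. With array weights it was 0.61 (limma unadjusted p = 0.0779), and leaving out DCLI2, DCLI4 or CON3 also took its unadjusted p above 0.05 (0.0552, 0.0650 and 0.0529 in limma). Per 100 TPM of VIL1 it was 4.31 to 6.37 in DCLI and 2.45 to 5.28 in CON, and CON4, with little VIL1, gave the highest CON value.

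SLC26A3 (gene ID 512856), the chloride-bicarbonate exchanger DRA that absorbs chloride and whose loss causes congenital chloride diarrhoea in humans, varied more within each group than between them. It had 13.1, 37.2, 79.4 and 120 TPM in DCLI, against 26.3, 75.0, 36.5 and 7.35 TPM in CON. The lowest DCLI calf, DCLI1, lay below 3 of the CON calves. The limma log2 fold change was 0.75 (95% interval -1.04 to 2.54, unadjusted p = 0.367), and 0.16 without CON4.

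SLC26A3 and SLC26A6, which do related work in the same membrane, changed places from calf to calf. SLC26A6 held 61.4% of the summed SLC26 TPM in DCLI1 and 45.0% in DCLI2, where SLC26A3 held 14.8% and 27.5%. In DCLI3 and DCLI4 the order was turned, with 25.2% and 31.3% for SLC26A6 beside 56.6% and 51.6% for SLC26A3. In CON, SLC26A6 led in CON1 (42.1% beside 33.4% for SLC26A3) and SLC26A3 led in CON2, CON3 and CON4. SLC26A11, an anion transporter of lower level, had 11.1, 14.6, 12.2 and 23.0 TPM in DCLI and 12.7, 14.1, 23.9 and 5.30 TPM in CON, which overlapped. SLC26A2, the sulfate transporter, had 8.82 to 19.9 TPM in DCLI and 5.28 to 14.3 TPM in CON (limma log2 fold change 0.60, unadjusted p = 0.124). SLC26A10 was at 0.340 to 7.30 TPM, and SLC26A1, SLC26A4, SLC26A5, SLC26A7 and SLC26A8 stayed at or below 0.360 TPM in every library.

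SLC9A3 (gene ID 407112), the brush border sodium-proton exchanger NHE3 and the main route of sodium uptake with chloride, was the most abundant SLC9 gene over all calves. Its TPM was 46.1, 17.7, 21.4 and 8.43 in DCLI1 to DCLI4, against 67.3, 30.1, 63.7 and 10.1 in CON1 to CON4. CON1 and CON3 were the highest, DCLI1 lay above CON2, and CON4 was near the lowest DCLI calf, so that the groups overlapped. The means were 23.4 ± 16.1 TPM in DCLI and 42.8 ± 27.5 TPM in CON (SD, n = 4 each), with a limma log2 fold change of -0.76 (SE 0.65, unadjusted p = 0.273). Without CON4 it was -1.31 with an unadjusted p of 0.0320 and an adjusted p of 0.453 in limma. CON1 and CON3 were also the calves with the highest FABP6. DCLI1 had the lowest FABP6 of all calves (0.760 TPM) and 46.1 TPM of SLC9A3, and CON2 had 26023 TPM of FABP6 and 30.1 TPM of SLC9A3. The part of intestinal position in the SLC9A3 difference was not tested.

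SLC9A3R2 and SLC9A3R1 are scaffolds of SLC9A3. SLC9A3R2 had 24.9, 30.7, 24.8 and 24.3 TPM in DCLI, against 42.5, 31.9, 50.0 and 11.8 TPM in CON. CON1 to CON3 were all above DCLI and CON4 was below it, and the limma log2 fold change was -0.20 (unadjusted p = 0.626) with all calves and -0.63 (unadjusted p = 0.00823, adjusted p = 0.391) without CON4. SLC9A3R1, the most abundant of the 43 genes, had 242, 244, 283 and 296 TPM in DCLI and 438, 303, 283 and 75.3 TPM in CON. Its limma log2 fold change was 0.20 with all calves and -0.34 without CON4, and it passed no threshold in either fit. Per 100 TPM of EPCAM, both scaffolds separated the groups, with all DCLI calves below all CON calves and CON4 included: 29.5 to 36.4 against 41.8 to 75.0 for SLC9A3R1 and 2.95 to 3.70 against 4.40 to 8.73 for SLC9A3R2 (exact permutation p = 0.0286 for each). EPCAM itself averaged 780 ± 63.1 TPM in DCLI and 515 ± 236 TPM in CON (SD, n = 4 each; limma log2 fold change 0.77, unadjusted p = 0.0937), while SLC9A3R1 averaged 266 TPM in DCLI and 275 TPM in CON. Against VIL1 both overlapped.

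SLC9A2, the second apical exchanger NHE2, had 9.38, 14.7, 11.98 and 12.9 TPM in DCLI and 9.18, 15.1, 14.1 and 2.18 TPM in CON. The groups overlapped, with CON4 far below the rest, and the limma log2 fold change of 0.47 (unadjusted p = 0.353) was -0.05 without CON4. SLC9A8, an exchanger of the Golgi and apical membrane, was even, at 7.27 to 11.5 TPM in DCLI and 7.57 to 9.93 TPM in CON. SLC9A5 was more uneven, at 1.21 to 9.36 TPM in DCLI and 3.35 to 12.7 TPM in CON.

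Other SLC9 genes were high in CON4 alone, the library with the highest value of 39.8% of all tested genes. SLC9B2, the sodium-proton antiporter NHA2, had 0.420, 0.380, 0.420 and 0.340 TPM in DCLI, against 0.370, 0.630, 0.710 and 29.3 TPM in CON1 to CON4. It did not pass the filter, and the difference between the group means (0.390 ± 0.0383 TPM in DCLI and 7.75 ± 14.4 TPM in CON, SD, n = 4 each) rests on CON4. The authors' own DESeq2 test on counts listed SLC9B2 among the genes lower in DCLI. SLC9A7 and SLC9A9, exchangers of the trans-Golgi network and of endosomes, were at 24.1 and 11.9 TPM in CON4. In the other 7 libraries they stayed at 1.43 to 3.76 and 1.09 to 3.13 TPM. In CON4 these 3 genes held 24.8%, 20.4% and 10.1% of the SLC9 sum, and SLC9A3 held 8.56%. The SLC9 sum itself was 111, 95.2, 82.9 and 77.6 TPM in DCLI and 125, 113, 130 and 118 TPM in CON: the totals did not overlap, although SLC9A3 led in CON1 and CON3 and the genes of CON4 were others. B cell genes such as CD79A (744 TPM) and PAX5 (97.0 TPM) peaked in the same library, and a link to the SLC9 genes was not tested.

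**Figure D3:**
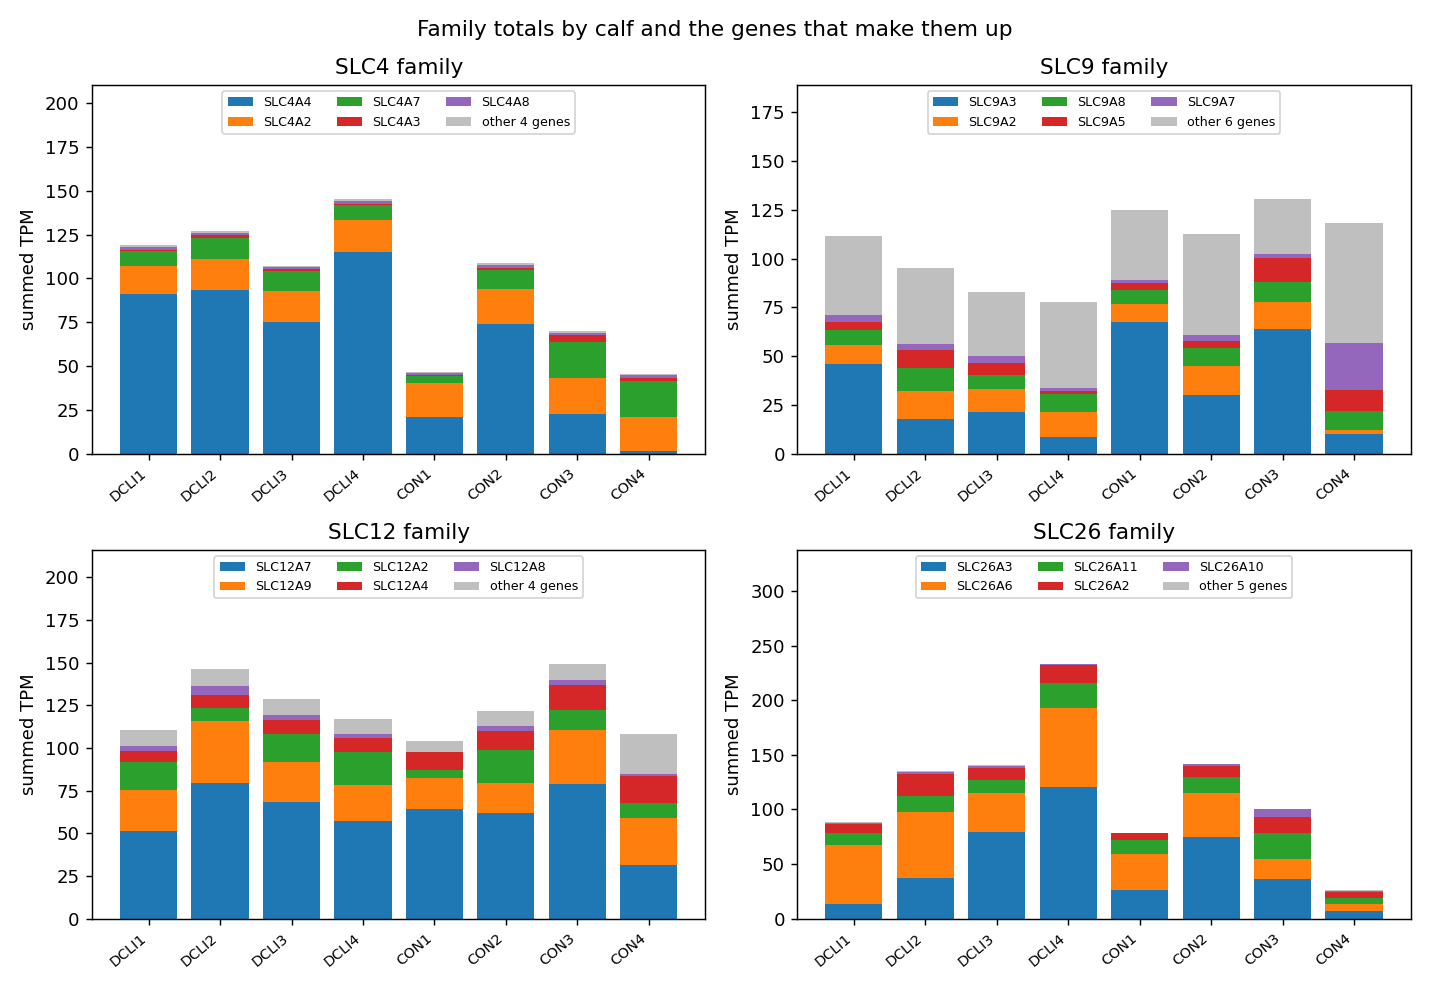
Summed TPM of the SLC4, SLC9, SLC12 and SLC26 families by calf, DCLI calves on the left and CON calves on the right, with 5 abundant genes of each family coloured and the others in grey. SLC4A4 fills most of the SLC4 sum in DCLI and CON2 but 3.44% of it in CON4, where SLC9A7 (purple), and SLC9B2 and SLC9A9 in the grey part, take up more of the SLC9 sum than in the other calves.

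SLC12A4 (gene ID 533876) encodes KCC1, a potassium-chloride cotransporter found in most tissues that lets cells lose salt and shrink. It had 6.55, 7.81, 8.14 and 8.23 TPM in DCLI1 to DCLI4, against 10.2, 11.1, 14.4 and 15.5 TPM in CON1 to CON4. All DCLI calves were below all CON calves, and CON4, here the highest, did not set the gap, which lay between DCLI4 and CON1. The means were 7.68 ± 0.776 TPM in DCLI and 12.8 ± 2.55 TPM in CON (SD, n = 4 each; exact permutation p = 0.0286). The limma log2 fold change was -0.66 (SE 0.20, 95% interval -1.11 to -0.20), with an unadjusted p of 0.00999, the smallest among the exchangers, and an adjusted p of 0.692 (0.291 to 0.941 over the alternatives). Without CON4 it was -0.56 with an unadjusted p of 0.0112. Per 100 TPM of EPCAM SLC12A4 remained separate (exact permutation p = 0.0286), and per 100 TPM of VIL1 the groups overlapped (exact permutation p = 0.114). Of the 6 fibroblast genes, COL1A2 alone separated the groups, at 30.1 to 63.4 TPM in DCLI and 75.6 to 97.8 TPM in CON. COL1A1 was at 35.7 to 78.8 TPM in DCLI and 77.9 to 147 TPM in CON, and COL3A1, DCN, LUM and PDGFRA also overlapped (limma log2 fold change of LUM -0.06, unadjusted p = 0.880). The part of fibroblasts in the SLC12A4 difference was not tested.

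SLC12A7, the potassium-chloride cotransporter KCC4, was the most abundant SLC12 gene, with 51.2, 79.7, 68.6 and 57.4 TPM in DCLI and 64.1, 61.6, 79.0 and 31.5 TPM in CON. SLC12A9, a relative of these cotransporters, had 24.1, 36.1, 23.2 and 20.6 TPM in DCLI and 18.6, 17.9, 31.4 and 27.7 TPM in CON. Neither separated the groups (limma log2 fold changes 0.17 and 0.12, unadjusted p = 0.570 and 0.642). SLC12A2, the NKCC1 cotransporter that feeds chloride secretion, had 16.4, 7.56, 16.4 and 19.7 TPM in DCLI and 4.53, 19.6, 11.9 and 8.77 TPM in CON. DCLI2 and CON2 were each out of step with their group, and the limma log2 fold change was 0.47 (unadjusted p = 0.295). SLC12A8 had 2.49 to 4.78 TPM in DCLI and 0.470 to 3.18 TPM in CON. The kidney cotransporter SLC12A3 was at 1.47 TPM in CON4 and at most 0.680 TPM elsewhere, and SLC12A1 and SLC12A5, of kidney and neurons, were at or below 0.0600 TPM.

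CFTR (gene ID 281067), the chloride channel of secretion, was low: 4.24, 3.94, 3.27 and 5.82 TPM in DCLI, against 3.55, 5.25, 4.68 and 1.14 TPM in CON. The groups overlapped, with CON4 alone below the others, and the limma log2 fold change of 0.28 (unadjusted p = 0.442) was -0.06 without CON4. The sperm exchangers SLC9C1 and SLC9C2 were at or below 0.310 TPM. SLC4A1AP had 11.5 to 14.6 TPM in DCLI and 10.7 to 21.2 TPM in CON.

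**Figure D4:**
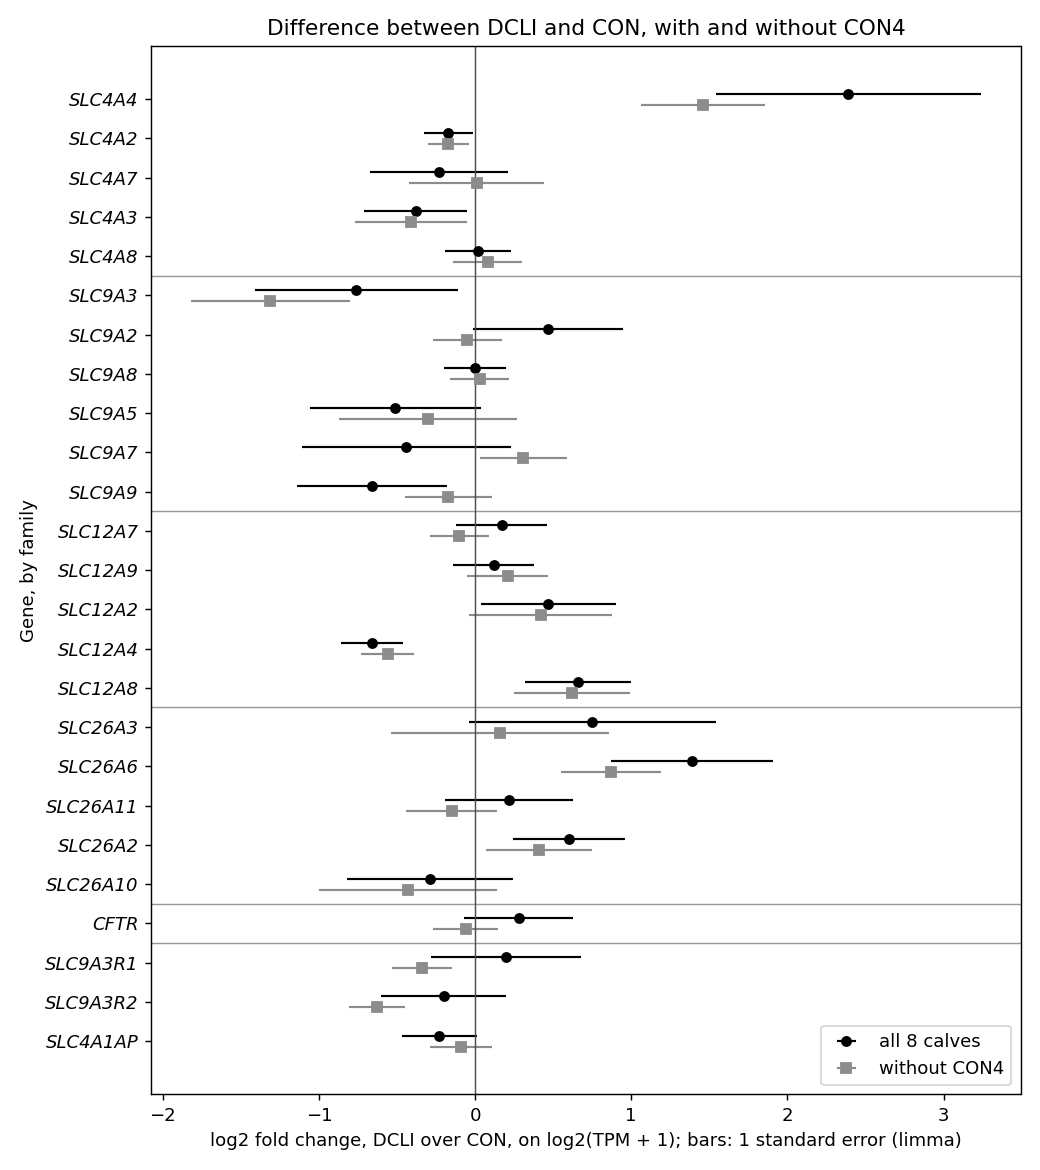
The limma log2 fold change of DCLI over CON on log2(TPM + 1) for the same 25 genes, with bars of 1 standard error, from all 8 calves (black) and without CON4 (grey). SLC4A4, SLC26A6 and SLC12A4 keep their side of 0, SLC9A3 and SLC9A3R2 move to -1.31 and -0.63 without CON4, and CFTR, SLC9A2 and SLC9A3R1 change sign.

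Genes that work with the exchangers were read from 4 lists, chosen with earlier results of these data known. Their counts are at a limma unadjusted p under 0.05, which 4.09% of all genes passed as higher and 2.99% as lower (4.22% and 5.86% without CON4). Of 24 tested scaffolds, kinases and other regulators, SLC9A3R1 and SLC9A3R2 among them, 3 were higher in DCLI and 0 lower with all calves, and 2 were higher and 3 lower without CON4. The fold changes were positive in 14 and negative in 10 with all calves, and positive in 10 and negative in 14 without CON4. AHCYL1, or IRBIT, which binds NBCe1 and raises its activity, had 72.5, 77.7, 63.6 and 59.4 TPM in DCLI, against 44.9, 54.1, 49.2 and 39.4 TPM in CON. All DCLI calves were above all CON calves (limma log2 fold change 0.53, unadjusted p = 0.0147, and 0.46 without CON4). Its relative AHCYL2 had 121, 146, 125 and 219 TPM in DCLI and 61.0, 175, 39.2 and 18.4 TPM in CON, with CON2 above 3 of the DCLI calves (limma log2 fold change 1.47, unadjusted p = 0.0334, and limma unadjusted p = 0.0665 without CON4). CHP2, a calcium-binding partner of sodium-proton exchangers, had 196, 177, 67.9 and 126 TPM in DCLI and 22.6, 103, 10.9 and 2.93 TPM in CON. As for SLC4A4 and SLC26A6, its lowest DCLI calf was DCLI3 and its highest CON calf was CON2 (limma log2 fold change 2.84, unadjusted p = 0.00951). That order also held for GATA4 and for enterocyte genes such as APOB and MTTP, though not for others such as FABP2 and SI. Without CON4 the fold change of CHP2 was 2.10 (limma unadjusted p = 0.0146), and with array weights 1.18 (limma unadjusted p = 0.106). GUCA2A, or guanylin, the most abundant of the list and a peptide that favours chloride secretion over sodium uptake, had 897 to 2766 TPM in DCLI and 316 to 3910 TPM in CON. Its limma log2 fold change was -0.17 with all calves and -1.03 (unadjusted p = 0.0256) without CON4.

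Of 12 tested genes of the sodium pump and of potassium channels, 2 were higher and 0 lower with all calves, and 1 was higher and 2 lower without CON4. FXYD3, a small subunit of the pump, had 19.0, 15.6, 19.5 and 16.4 TPM in DCLI and 4.21, 15.9, 5.10 and 2.29 TPM in CON, where CON2 alone reached the DCLI range (limma log2 fold change 1.52, unadjusted p = 0.00736). It was 1.19 without CON4 (limma unadjusted p = 0.0122) and 0.62 with array weights (limma unadjusted p = 0.0861). KCNN4, a basolateral potassium channel, had 18.1 to 37.0 TPM in DCLI and 5.60 to 25.3 TPM in CON (limma log2 fold change 0.96, unadjusted p = 0.0424, and limma unadjusted p = 0.0796 without CON4).

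Carbonic anhydrases, which supply bicarbonate and protons to the exchangers, gave 1 higher and 0 lower of 10 tested, and 1 higher and 1 lower without CON4, with 7 of 10 fold changes negative in both. The higher one was CA9, a membrane-bound form, at 5.53, 4.64, 4.24 and 3.54 TPM in DCLI and 3.18, 3.01, 2.68 and 2.24 TPM in CON (limma log2 fold change 0.53, unadjusted p = 0.0253, and 0.46 without CON4). The groups did not overlap, at a low level. The lower one was CA4, a form anchored to the cell surface, at 0.630, 2.70, 79.4 and 28.2 TPM in DCLI and 122, 52.1, 84.7 and 22.5 TPM in CON, with a limma log2 fold change of -2.46 (unadjusted p = 0.0612) with all calves and -2.92 (unadjusted p = 0.0423) without CON4. CA13, the most abundant, had 49.7 to 190 TPM in DCLI and 8.35 to 123 TPM in CON, which overlapped.

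Of 16 tested genes of other chloride, sodium and proton paths, 2 were higher and 0 lower with all calves, and 1 was higher and 0 lower without CON4. OTOP3, a proton channel of the otopetrin family, had 17.2, 5.53, 4.83 and 7.59 TPM in DCLI and 2.34, 2.04, 0.650 and 0 TPM in CON, with no overlap (limma log2 fold change 2.12, SE 0.48, unadjusted p = 0.00166, adjusted p = 0.692, and 1.78 without CON4). It also stayed separate per 100 TPM of VIL1 and of EPCAM (exact permutation p = 0.0286 for each). On those scales AHCYL1 and CA9, which were separate in TPM, overlapped (exact permutation p = 0.971 for each against VIL1), as did AHCYL2, CHP2, FXYD3 and KCNN4. Against VIL1 the CON means of AHCYL1 and CA9 rest on CON4 (33.8 and 1.92). DCLI averaged 6.90 and 0.456, and CON1 to CON3 averaged 4.89 and 0.287. Without CON4 both still overlapped against VIL1, whereas FXYD3 was higher in all DCLI calves. CLCA1, a secreted protein of goblet cells, had 184, 114, 157 and 150 TPM in DCLI and 21.4, 292, 25.4 and 14.5 TPM in CON, with CON2 the highest of all (limma log2 fold change 1.89, unadjusted p = 0.0447). Its limma unadjusted p was 0.109 without CON4, and with array weights its fold change was 0.10 (limma unadjusted p = 0.889). HVCN1, the voltage-gated proton channel of B cells and other leukocytes, had 2.19 to 2.87 TPM in DCLI, against 3.11, 3.34, 4.26 and 89.9 TPM in CON. The groups did not overlap, but the limma log2 fold change of -1.48 (unadjusted p = 0.135) was -0.40 without CON4. CLCA4, the most abundant gene of this list, had 895 to 1246 TPM in DCLI and 131 to 1426 TPM in CON, which overlapped.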

How the data were processed

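Jejunal RNA from 4 DCLI and 4 CON calves was poly(A)-selected and sequenced, and the authors filtered reads with SOAPnuke, aligned them with HISAT2 to the bovine assembly ARS-UCD1.2 and quantified them with RSEM. Their own test was DESeq2 1.4.5 on counts. TPM is what the authors' RSEM run gave for each entry in each library, deposited without pooling calves. Estimated counts deposited in the same table are filled for 76 of 50681 entries, did not follow the TPM of their own row (median r -0.1662) and cover no exchanger gene, so they were not used and no count model was fitted here.

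TPM was summed by gene ID. All 43 genes matched a RefSeq table of ARS-UCD2.0, used for names and neighbours only. No coordinates are given because the builds differ. The strand setting is not given in the sources used here, so reads of overlapping genes (SLC9A7 with CHST7, SLC26A2 with PDE6A, SLC9A3R1 with NAT9) cannot be told apart. TPM keeps no depth, so no counting interval is given. Genes at 1 TPM or more numbered 12872 to 13247 per DCLI library and 12825 to 13552 per CON library.

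The comparison used limma 3.58.1 in R 4.3.3 (lmFit, then eBayes with a trend). Values were log2(TPM + 1), and the 13228 genes that reached 1 TPM in 4 or more libraries were kept, with Benjamini-Hochberg correction across them. Fold changes on this scale understate those of low genes. Single genes were tested by 2-sided exact permutation of mean TPM over 70 assignments. Each library is 1 calf. The step was tested on simulated data with independent noise for each gene and library. That simulation held no library set apart like CON4. Exchanger genes and lists were chosen with earlier results of these data known. Per-calf values are given for the 3 most abundant genes of each family, genes at an unadjusted p under 0.05, genes without overlap, and genes above 1 TPM in at most 2 libraries. Results for a few genes are not reported here. SLC9A3R1 and SLC9A3R2 were added after their values were seen. Partners are named by the same p and overlap rules or as the most abundant of a list, and GATA4, FABP6 and COL1A2 after their values were seen. Alternatives changed the pseudocount, filter, scaling, variance model, weights, pairing, entries summed and libraries. Tables and figures were made in Python 3.11.15 (matplotlib 3.10.9, scipy 1.17.1, pandas 2.3.3, numpy 2.4.6).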

Additional observations from a re-analysis of the deposited data

Results flagged for a closer look

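Each of the 28 tested exchanger genes was checked in both groups on the log2(TPM + 1) scale for a calf far from the other 3 of its group, which gave 56 checks. In 2 of them the gap to the nearest calf was a larger share of the range of the group than Dixon's 95% limit for 4 samples allows, and chance alone gives about 1 in 20, or 2.8. In SLC4A2, DCLI1 was the lowest DCLI calf at 16.0 TPM, below 17.9 to 18.1 TPM in the other 3, with a gap of 0.896 of the range. In SLC9A3R2, DCLI2 was the highest DCLI calf at 30.7 TPM, above 24.3 to 24.9 TPM in the other 3, with a gap of 0.898 of the range. Neither calf reached the CON range of CON1 to CON3 for that gene.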

How the results depend on the processing

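Of 474 log2 fold changes of 28 named genes under 17 alternatives, 450 kept their sign, and 14 genes kept it under all of them. Reversals under array weights were CFTR -0.19, SLC12A2 -0.09, SLC12A7 -0.04, SLC26A11 -0.13, SLC26A3 -0.56, SLC9A2 -0.23, SLC9A3R1 -0.20, CA13 -0.09 and CLCA4 -0.11. Of these, CFTR, SLC12A7, SLC26A11, SLC9A2, SLC9A3R1 and CLCA4 also reversed without CON4, as did SLC4A7. Leaving out 1 calf gave ranges of -0.06 to 0.46 for CFTR, -0.10 to 0.34 for SLC12A7, -0.04 to 0.26 for SLC12A9, -0.15 to 0.51 for SLC26A11, -0.69 to 0.01 for SLC4A7, -0.05 to 0.73 for SLC9A2, -0.34 to 0.51 for SLC9A3R1, -0.63 to 0.04 for SLC9A3R2, -0.02 to 1.12 for CLCA4 and -1.03 to 0.18 for GUCA2A. SLC4A2 was 0.19 with the most abundant entry only. The cause was not tested.

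Exchanger genes at an unadjusted p under 0.05 numbered 0 higher and 2 lower under array weights, 1 to 3 higher and 1 to 3 lower leaving out 1 calf (1 higher without DCLI2 or DCLI4, 2 lower without CON1 or CON3, 3 lower without CON4). Genes without overlap numbered 1 lower under median-ratio scaling and with the most abundant entry only, 2 higher and 1 lower under quantile normalisation, and 1 to 2 higher and 2 to 3 lower leaving out 1 calf. Over all genes, 0 to 9 passed the adjusted threshold leaving out 1 calf (1 without DCLI1, 9 without CON2), among them CLCA1 without CON2 (log2 fold change 2.84). Of the 13228 genes tested, 541 were higher and 396 lower at a limma unadjusted p under 0.05 with all calves. Without CON4 these counts were 558 and 775, and under array weights 462 and 909. Leaving out DCLI1 to DCLI4 in turn gave 292 and 154, 284 and 241, 462 and 343, and 388 and 188. Leaving out CON1, CON2 or CON3 gave 418 and 525, 879 and 478, and 591 and 331. With the replicate number as a block they were 521 and 324. Shares of all genes without overlap are given only for all calves and without CON4. Against EPCAM the ratio of means of SLC4A4 was 2.57 (exact permutation p = 0.0571), and against VIL1 that of SLC12A4 was 0.184 (p = 0.114) and that of SLC4A2 0.313 (p = 0.371), all by exact permutation and chosen after seeing the data, as was the most abundant entry. Both VIL1 ratios rest on CON4 (13.3 and 16.7): DCLI averaged 0.778 and 1.77, and CON1 to CON3 1.22 and 1.97. The median over exchangers stayed between -0.14 and 0.18. Replicate numbers did not pair the calves (correlation of deviations -0.198 to 0.0507), and with the replicate number as a block 2 exchanger genes were lower at an unadjusted p under 0.05. An alternative that sums only messenger RNA entries was not run, because the entries carry no transcript names.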
